A study of Mus musculus and Homo sapiens with 8 samples.

Results

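The genes described here build the mitotic spindle, condense the chromosomes and pull them apart. They are 51 protein-coding genes of mitosis and chromosome segregation, taken by symbol from a deposited expression table of 13359 distinct mouse genes. All 51 were listed, and all 51 passed the filter on low values (at least 1 FPKM in at least 2 libraries), which left 12948 genes tested. FPKM divides a gene's reads by its length and by the size of the library, so levels of different genes can be compared on it.

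RNA was measured in crypts of the small intestine from untreated C57BL/6 mice of 2 months, with 2 libraries per group. The tested mice carried the Apc Min mutation and a deletion of Zmynd8 in intestinal epithelial cells (genotype written as APCmin+; Zmynd8IEC-/-), and the controls carried Apc Min alone (APCmin+). Both groups therefore share Apc Min, which truncates a brake on Wnt signalling and leads to intestinal adenomas, and no mice without it were analysed here. Each library mixed RNA of 3 mice in equal mass, the driver of the deletion is not named in the labels, and nothing says whether the pools of a group were prepared apart, so the spread behind each p-value is that of these pools and may be technical.

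Zmynd8 RNA, the check of the labels, was not lower where it should be. Its level was 7.30 and 7.65 FPKM in the libraries labelled knockout, against 6.94 and 4.73 FPKM in the controls. A gene-level value does not show a deleted exon, so the targeted gene gave no check, and each direction below rests on the labels. The libraries rested on 46551218 and 47990019 counted reads in the group labelled knockout and on 44718091 and 48778712 in the controls. Members held 215 to 10774 reads per library. Epcam, a surface marker of epithelium, had 989 and 976 FPKM in the libraries labelled knockout, against 1195 and 1315 FPKM in the controls. Vil1, the gene of the brush border protein villin, had 1239 and 1277 FPKM in the libraries labelled knockout, against 834 and 1092 FPKM in the controls. Genes of intestinal epithelium were thus present in each library, but neither gene is particular to crypts.

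A dividing cell enters mitosis when cyclins A and B activate the kinase CDK1. Condensin then packs the chromosomes, kinetochores tie them to spindle microtubules, and the spindle checkpoint holds back the anaphase-promoting complex (APC/C) until each chromosome is attached. After CDC20 starts the APC/C, securin is destroyed, separase cuts cohesin, and the cell is cleaved at the spindle midzone. Many of these genes are transcribed late in the cycle under the DREAM, B-MYB and FOXM1 regulators, which act through CHR and CCAAT elements near the start site. In the intestinal crypt the dividing cells are stem cells and the transit-amplifying cells above them, whereas enterocytes and Paneth cells have left the cycle.

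The promoters are shown first, because genes of this kind are known for a shared promoter layout. Windows of 300 bases (250 before to 50 after a start) were matched by symbol in RefSeq on build GRCm38.p6 for 43 of the 51 members. Letters were searched on both strands: CCAAT for the CCAAT box, TTTGAA for the CHR, TTTAAA for its second form, and TTCGCGC and TTGGCGC for E2F-type sites. A window of 31 of the 43 members (72.1%) held TTTGAA, against 14.5% of the 9290 genes tested that have a window. CCAAT was present for 74.4% of the members, against 42.5%, and both motifs together for 27 of them (62.8%), against 6.0%. The second CHR form stood at 20.9% against 11.1%, TTCGCGC at 4.65% against 3.4%, and TTGGCGC at 16.3% against 4.91%. A match is a description of letters and not a site of binding.

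**Figure D1:**
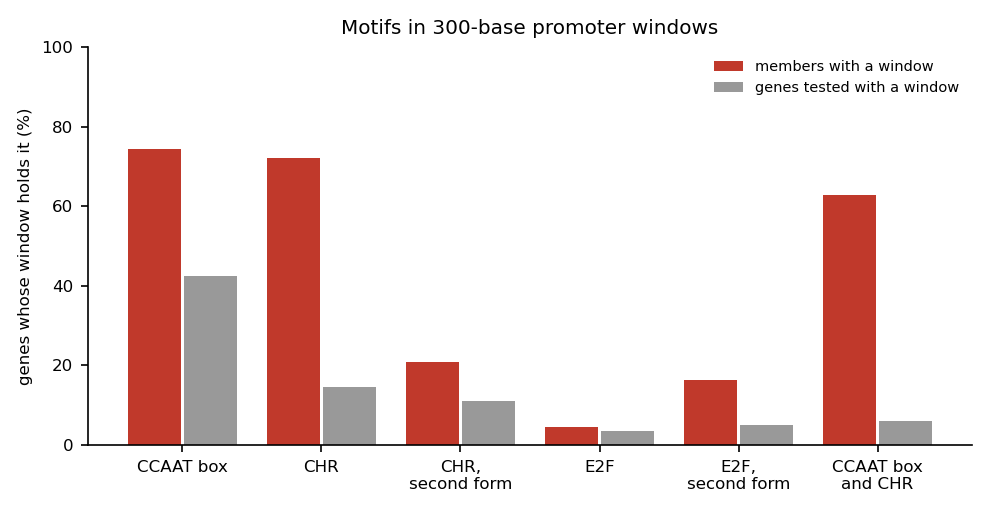
Share of genes (%) whose 300-base promoter window holds each motif on either strand, for the 43 members with a window (red, left bar of each pair) and the 9290 genes tested with a window (grey). TTTGAA, plotted as CHR, stood at 72.1% and 14.5%, and the CCAAT box with the CHR at 62.8% and 6.0%.

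The 6 stretches below run from 100 bases before to 30 bases after the start, 5′ to 3′ on the gene's strand, with CCAAT (or its complement ATTGG) and TTTGAA (or TTCAAA) in capitals. They are the 5 members of smallest p among those with both motifs in that stretch, and Ccnb2, which has the same layout and the smallest fold change among them. All are on the minus strand of GRCm38.p6.
Cdca8 at chr4:124936888-124937017: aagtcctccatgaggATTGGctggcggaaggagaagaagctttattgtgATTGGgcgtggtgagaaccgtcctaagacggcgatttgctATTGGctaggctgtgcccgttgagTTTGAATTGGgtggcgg
Cdc20 at chr4:118437314-118437443: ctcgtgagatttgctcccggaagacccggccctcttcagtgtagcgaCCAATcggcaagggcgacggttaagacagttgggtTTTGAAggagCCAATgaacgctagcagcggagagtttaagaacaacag
Racgap1 at chr15:99651627-99651756: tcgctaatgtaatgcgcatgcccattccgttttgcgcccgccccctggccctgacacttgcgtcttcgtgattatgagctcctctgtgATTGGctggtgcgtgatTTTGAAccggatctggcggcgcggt
Top2a at chr11:99024160-99024289: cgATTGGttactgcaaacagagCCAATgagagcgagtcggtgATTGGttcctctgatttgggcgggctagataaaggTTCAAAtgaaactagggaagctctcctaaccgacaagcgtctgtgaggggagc
Kif23 at chr9:61946770-61946899: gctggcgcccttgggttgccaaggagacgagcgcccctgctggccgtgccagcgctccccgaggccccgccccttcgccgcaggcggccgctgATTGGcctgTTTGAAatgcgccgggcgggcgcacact
Ccnb2 at chr9:70421525-70421654: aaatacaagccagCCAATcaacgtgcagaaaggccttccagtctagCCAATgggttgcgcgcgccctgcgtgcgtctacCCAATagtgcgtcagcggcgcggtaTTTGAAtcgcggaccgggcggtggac
In Cdca8 the TTTGAA runs into an ATTGG and shares 1 base with it. Ccnb2 carried 3 CCAAT boxes and a TTTGAA near the start site, and its level differed least between the groups among the members with both motifs in that stretch.

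All 51 members had a lower mean, as 71.7% of all genes tested had, in the libraries labelled knockout, at 54.5% (Incenp) to 88.3% (Smc4) of the control mean, with a median of 66.8%. For 37 members this share lay between 60% and 75%, for 5 under 60% and for 9 over 75%. In 50 of the 51, both libraries labelled knockout lay under both controls, whereas 48.5% of all genes tested did so. The exception was Smc4. Summed over the members, FPKM came to 424 and 425 in the libraries labelled knockout, against 647 and 592 in the controls. Members' log2 fold changes, taken on log2(FPKM + 1) and so understated for low genes, ran from -0.79 to -0.16 with a median of -0.50, where the median of all genes tested was -0.15. After median-ratio scaling, which moves that median to -0.01, the members' median was -0.34 and 45 of 51 were lower in all 4 pairings of libraries, against 28% of all genes tested.

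None of the members passed limma's threshold (adjusted p under 0.05 over all genes tested), which 0.131% of all genes passed in the lower direction. Their adjusted p ran from 0.0516 (Cdca8) to 0.450 (Smc4). At an unadjusted p under 0.05, 44 of 51 were lower, against 19.1% of all genes tested. With limma-voom on the recovered reads 0 passed as well (background 0.209%), and 42 were lower at an unadjusted p under 0.05, against 19.4%. Without control replicate 2 the count of members called was 6 (Plk1, Mad2l1, Incenp, Cdca8, Prc1 and Top2a), against 3.06% of all genes, in a fit where the lone control is assumed to vary like the other group. In the authors' deposited table the lowest p-value among members was 0.1005 (Top2a) and no q-value was under 1, while 0.876% of the listed genes were lower at a q under 0.05.

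**Figure D2:**
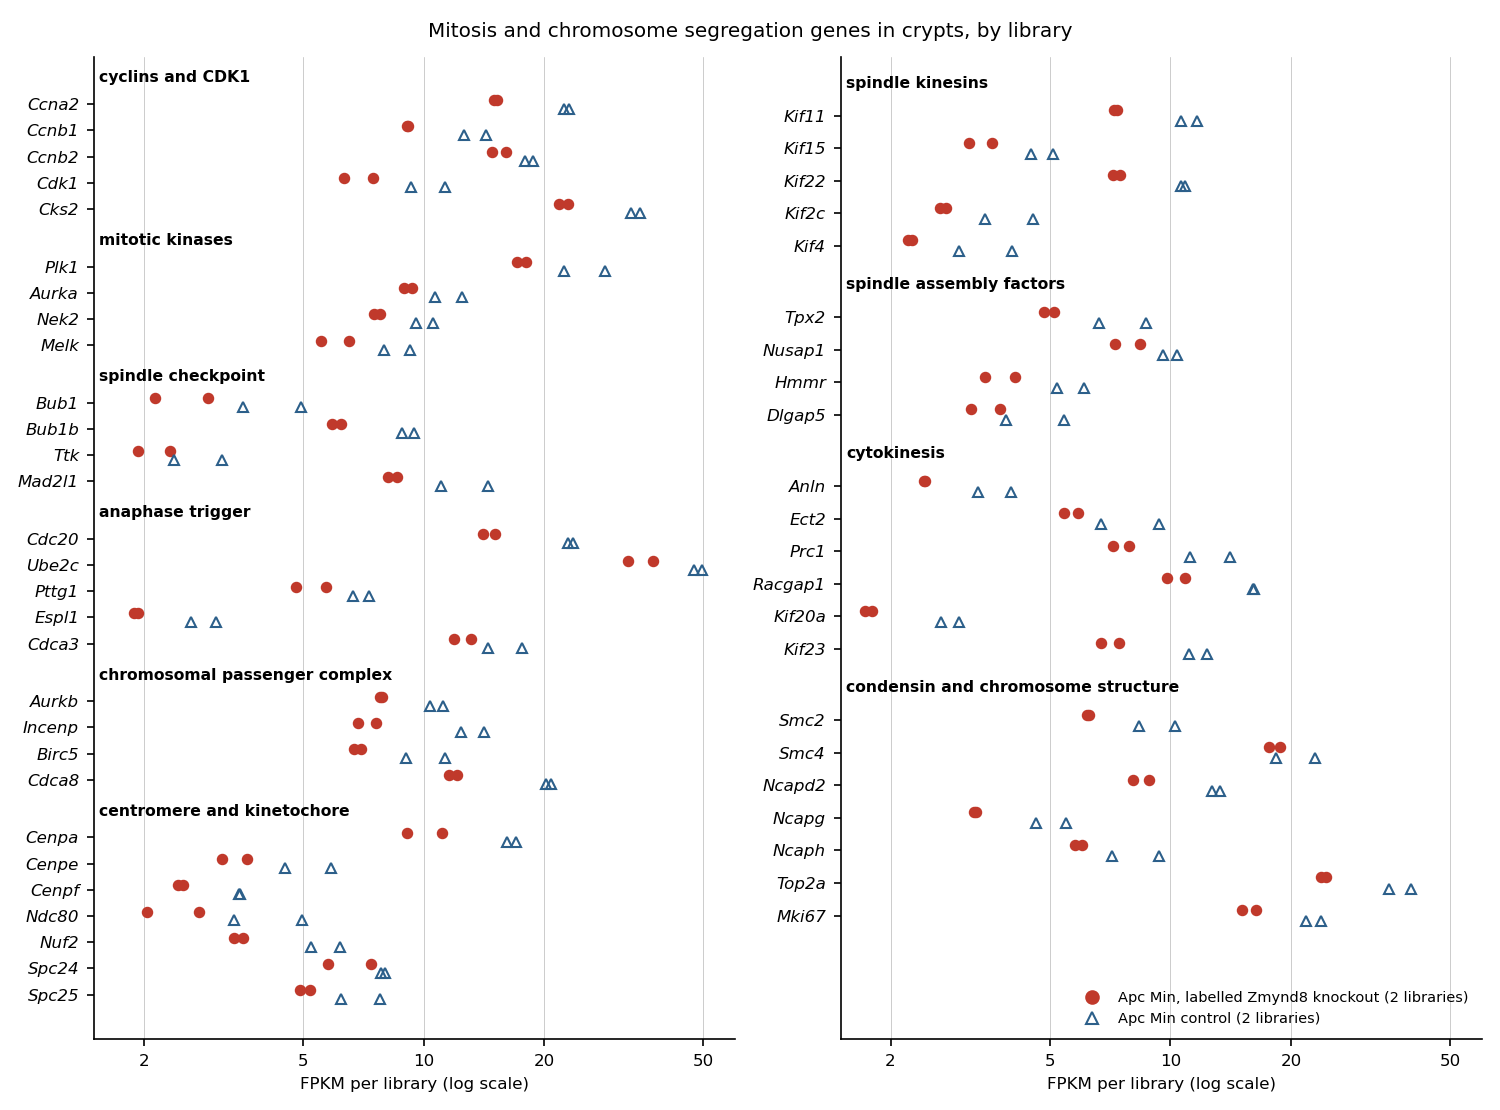
FPKM of each of the 51 members in each library (log axis), grouped by role. Red circles are the 2 libraries labelled knockout and open blue triangles the 2 Apc Min controls. The red pair lies left of the blue pair for every gene but Smc4, where 18.8 FPKM in a library labelled knockout exceeds 18.4 FPKM in a control.

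Cyclins and CDK1 set the entry into mitosis, and all 5 members of this kind were lower without overlap, against 48.5% of all genes tested. Ccna2, the cyclin of S phase and early mitosis, had 15.2 and 14.98 FPKM in the libraries labelled knockout, against 23.1 and 22.4 FPKM in the controls (log2 fold change -0.56, SE 0.09, adjusted p = 0.072). Ccnb1, the main mitotic cyclin, had 9.15 and 9.09 FPKM in the libraries labelled knockout, against 14.3 and 12.6 FPKM in the controls (-0.51, SE 0.11). Its kinase partner gene Cdk1 had 6.31 and 7.45 FPKM in the libraries labelled knockout, against 11.3 and 9.30 FPKM in the controls (-0.52, SE 0.14). For Ccna2 and Ccnb1 the gap between the groups was wider than the spread within either, whereas for Cdk1 the controls were further apart than the groups. Cks2, a small CDK-binding subunit, had 21.7 and 22.97 FPKM in the libraries labelled knockout, against 34.8 and 32.9 FPKM in the controls (-0.58, SE 0.09, adjusted p = 0.074). Ccnb2, the second B-type cyclin, had 14.8 and 16.1 FPKM in the libraries labelled knockout, against 17.97 and 18.8 FPKM in the controls (-0.24, SE 0.10, 95% interval -0.48 to 0.01). Ccnb2 thus kept 84.1% of its control mean where Ccnb1 kept 67.7%, and after median-ratio scaling its groups overlapped. Pseudogenes of Ccnb1 and Ccnb2 exist, and Ccna2 overlaps Exosc9 on the opposite strand, so some of their reads may belong to the other gene.

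Among the mitotic kinases, Plk1, which acts on centrosomes, kinetochores and cleavage, had 17.98 and 17.1 FPKM in the libraries labelled knockout, against 28.4 and 22.4 FPKM in the controls (-0.50, SE 0.14, adjusted p = 0.122). Aurka, the kinase of spindle poles, had the smallest difference of the group, with 8.96 and 9.33 FPKM in the libraries labelled knockout, against 12.5 and 10.7 FPKM in the controls (-0.31, SE 0.11). For Plk1 the controls differed from each other by more than the gap between the groups. Melk, a kinase gene expressed highly in dividing cells, had 6.51 and 5.54 FPKM in the libraries labelled knockout, against 9.26 and 7.96 FPKM in the controls (-0.45, SE 0.13, adjusted p = 0.133). Nek2, the gene of a centrosome-splitting kinase, gave -0.35. Plk1 and Aurka each overlap a listed gene on the opposite strand.

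Spindle checkpoint genes were lower by similar amounts, apart from Ttk. Bub1b, which encodes the APC/C inhibitor BUBR1, had 5.91 and 6.20 FPKM in the libraries labelled knockout, against 9.45 and 8.81 FPKM in the controls (-0.52, SE 0.10, adjusted p = 0.091). Mad2l1, the gene of the checkpoint protein MAD2, had 8.60 and 8.17 FPKM in the libraries labelled knockout, against 14.5 and 11.04 FPKM in the controls (-0.54, SE 0.15). Ttk, which encodes the checkpoint kinase MPS1, had 1.93 and 2.32 FPKM in the libraries labelled knockout, against 3.14 and 2.38 FPKM in the controls (-0.26, SE 0.17, adjusted p = 0.352). The groups are almost in contact for Ttk, whose gap was 2.48% of the lower control, and its interval reached 0.17. Bub1, the kinase that recruits other checkpoint proteins, gave -0.57 with a wide interval of -1.08 to -0.07.

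The 5 genes that trigger anaphase or are targets of the APC/C had a median of -0.39 and a range from -0.64 to -0.33. Cdc20, the APC/C activator (chromosome 4, 118432901 to 118437343, minus strand), had 14.1 and 15.1 FPKM in the libraries labelled knockout, against 23.7 and 22.98 FPKM in the controls (-0.64, SE 0.09, adjusted p = 0.067). Elovl1 overlaps it on the opposite strand, which makes the value uncertain. Ube2c, the ubiquitin-conjugating enzyme of the APC/C and the most abundant member, had 32.4 and 37.3 FPKM in the libraries labelled knockout, against 47.4 and 49.6 FPKM in the controls (-0.47, SE 0.11, adjusted p = 0.106). Cdca3, a mitotic entry factor degraded through the APC/C, had 11.9 and 13.1 FPKM in the libraries labelled knockout, against 14.5 and 17.6 FPKM in the controls (-0.33, SE 0.13). Here the controls were further apart than the groups, and after median-ratio scaling they overlapped. Securin (Pttg1) gave -0.35 and separase (Espl1) -0.39, in each case without overlap, as for 48.5% of all genes tested.

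The chromosomal passenger complex corrects faulty attachments and directs cleavage, and its 4 genes gave the lowest median of the 10 roles, -0.63. Cdca8, the gene of borealin (chromosome 4, 124918465 to 124936917, minus strand), had 11.6 and 12.1 FPKM in the libraries labelled knockout, against 20.2 and 20.8 FPKM in the controls (-0.74, SE 0.09, 95% interval -0.97 to -0.51, adjusted p = 0.0516). Both groups were tight, and the higher library labelled knockout lay 40.1% below the lower control. Incenp, the scaffold of the complex (chromosome 19, 9872297 to 9899546, minus strand), had 6.87 and 7.61 FPKM in the libraries labelled knockout, against 14.2 and 12.4 FPKM in the controls (-0.79, SE 0.12, adjusted p = 0.067). Birc5, which encodes survivin, had 6.96 and 6.69 FPKM in the libraries labelled knockout, against 9.06 and 11.3 FPKM in the controls (-0.51, SE 0.13). Unlike most members it was higher in control replicate 2 than in control replicate 1. Aurkb, the kinase of the complex, had 7.79 and 7.85 FPKM in the libraries labelled knockout, against 11.2 and 10.3 FPKM in the controls (-0.41, SE 0.10, adjusted p = 0.108). Kinase and scaffold therefore stood at 72.8% and 54.5% of their control means.

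Centromere and kinetochore genes had a median of -0.49. Cenpa, the histone H3 variant that marks centromeres, had 9.09 and 11.1 FPKM in the libraries labelled knockout, against 17.01 and 16.2 FPKM in the controls (-0.67, SE 0.12, adjusted p = 0.085). The 4 genes of the NDC80 complex, which binds microtubule ends, differed in their share of the control mean: Ndc80 stood at 57.6%, Nuf2 at 60.7%, Spc25 at 72.2% and Spc24 at 82.9%. Nuf2 had 3.37 and 3.54 FPKM in the libraries labelled knockout, against 6.17 and 5.22 FPKM in the controls (-0.58, SE 0.13, adjusted p = 0.099). Spc24 had 7.37 and 5.77 FPKM in the libraries labelled knockout, against 8.005 and 7.85 FPKM in the controls (-0.25, SE 0.14, 95% interval -0.60 to 0.11). Here the spread lay within the libraries labelled knockout, and the intervals of the 4 genes overlap. Cenpe, the kinesin that moves chromosomes to the spindle equator, gave -0.49, and the outer kinetochore gene Cenpf -0.36.

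The 5 spindle kinesins were the most uniform role, from -0.54 to -0.41. Kif11, the motor that pushes spindle poles apart, had 7.25 and 7.35 FPKM in the libraries labelled knockout, against 11.6 and 10.6 FPKM in the controls (-0.54, SE 0.10, adjusted p = 0.086). Kif22, a chromosome-arm motor, had 7.17 and 7.48 FPKM in the libraries labelled knockout, against 10.6 and 10.9 FPKM in the controls (-0.50, SE 0.10, adjusted p = 0.090). Kif15, a motor that can back up Kif11, had 3.58 and 3.13 FPKM in the libraries labelled knockout, against 5.10 and 4.47 FPKM in the controls (-0.41, SE 0.13). None of the 5 overlapped between the groups, where 48.5% of all genes tested were lower without overlap. The same held after median-ratio scaling, where that share was 28%. Kif4, which helps to shape chromosomes and the midzone, gave -0.46 and the microtubule depolymerase gene Kif2c -0.42. Named pseudogenes of Kif22 and Kif4 exist and may share their reads.

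Spindle assembly factors were led by Tpx2, the activator of Aurora A, with 4.83 and 5.13 FPKM in the libraries labelled knockout, against 8.68 and 6.64 FPKM in the controls (-0.52, SE 0.15, adjusted p = 0.130). Hmmr, the gene of a microtubule-binding spindle protein, had 4.08 and 3.45 FPKM in the libraries labelled knockout, against 6.08 and 5.22 FPKM in the controls (-0.48, SE 0.14, adjusted p = 0.131). Nusap1, which bundles microtubules near chromosomes, had 8.40 and 7.29 FPKM in the libraries labelled knockout, against 10.4 and 9.60 FPKM in the controls (-0.32, SE 0.11). Dlgap5, a stabiliser of kinetochore fibres, gave -0.33, and its groups nearly touched at 3.76 FPKM in a library labelled knockout and 3.89 FPKM in a control. Oip5 overlaps Nusap1 on the opposite strand.

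Cytokinesis genes act at the midzone and the cleavage furrow. All 6 were lower, as 71.7% of all genes tested were, with a median of -0.53. Racgap1 and Kif23 encode the partners of the centralspindlin complex. Racgap1 (chromosome 15, 99620496 to 99651656, minus strand) had 10.8 and 9.80 FPKM in the libraries labelled knockout, against 16.1 and 16.0 FPKM in the controls (-0.60, SE 0.10, adjusted p = 0.075). Kif23 had 7.45 and 6.71 FPKM in the libraries labelled knockout, against 12.3 and 11.1 FPKM in the controls (-0.66, SE 0.11, adjusted p = 0.076). The partners stood at 64.2% and 60.3% of their control means. Ect2, which centralspindlin recruits to activate RhoA, had 5.86 and 5.42 FPKM in the libraries labelled knockout, against 9.38 and 6.70 FPKM in the controls (-0.43, SE 0.17, adjusted p = 0.193). Ect2 differed more between the controls than between control replicate 2 and the libraries labelled knockout. Prc1, the midzone bundler, gave -0.67, the furrow protein gene Anln -0.43 and the midzone kinesin gene Kif20a -0.47; Prc1 and Kif20a overlap genes on the opposite strand.

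On log2(FPKM + 1), chromosome structure genes held the widest range of any role, from Top2a at -0.62 to Smc4 at -0.16. The ranking depends on that scale. With limma-voom they ran from -0.64 to -0.17, and centromere and kinetochore genes ran wider, from -0.78 (Ndc80) to -0.28 (Spc24). Top2a, the topoisomerase that untangles sister chromatids (chromosome 11, 98992947 to 99024205, minus strand), had 24.5 and 23.7 FPKM in the libraries labelled knockout, against 39.9 and 35.2 FPKM in the controls (-0.62, SE 0.10, adjusted p = 0.076). Mki67, the gene of the proliferation marker Ki-67, which coats mitotic chromosomes, had 16.3 and 15.1 FPKM in the libraries labelled knockout, against 23.8 and 21.9 FPKM in the controls (-0.51, SE 0.10, adjusted p = 0.090). Condensin I subunits stood at 64.4% (Ncapg), 64.9% (Ncapd2), 66.8% (Smc2) and 71.2% (Ncaph) of their control means; Ncapg overlaps Lcorl on the opposite strand. Ncapd2 had 8.07 and 8.83 FPKM in the libraries labelled knockout, against 13.3 and 12.7 FPKM in the controls (-0.57, SE 0.10, adjusted p = 0.080). Smc4, the partner of Smc2 in both condensins, had 18.8 and 17.7 FPKM in the libraries labelled knockout, against 22.9 and 18.4 FPKM in the controls (-0.16, SE 0.13, 95% interval -0.50 to 0.18, adjusted p = 0.450). Smc4 thus stood at 88.3% of its control mean, but the intervals of Smc2 and Smc4 overlap and their difference was not tested. For Smc4, median-ratio scaling gave 0.0041.

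**Figure D3:**
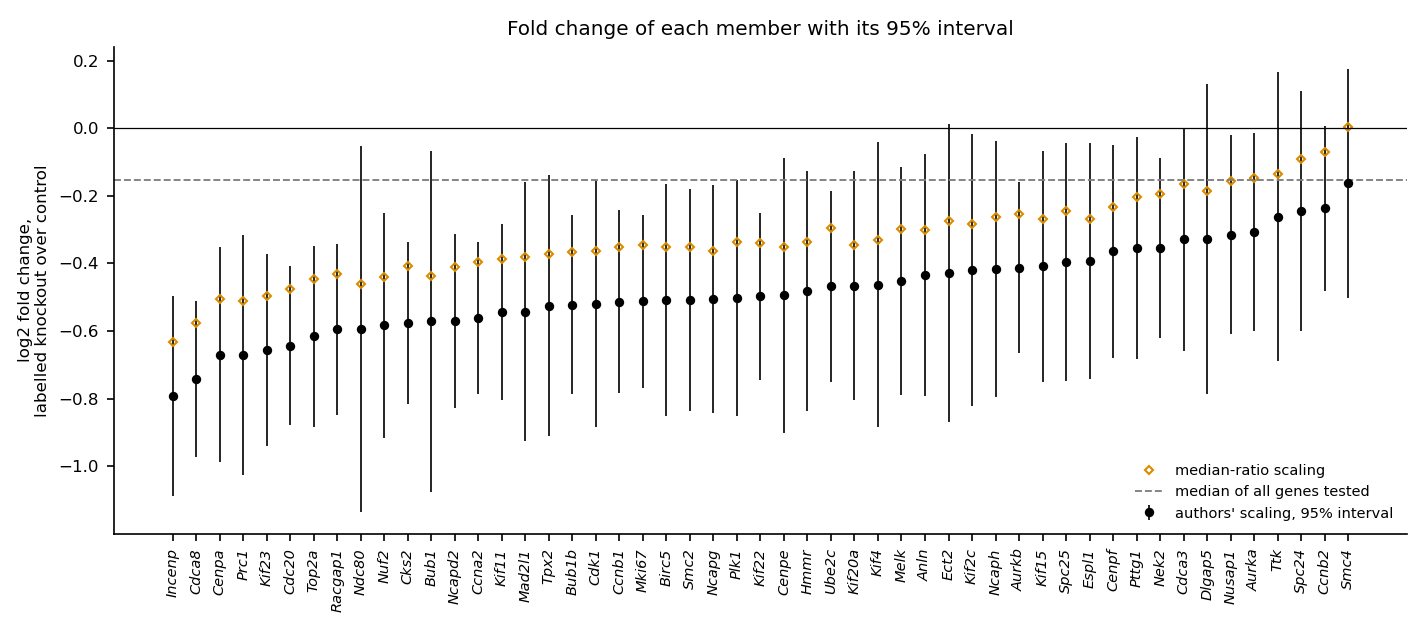
Log2 fold change (labelled knockout over control, on log2(FPKM + 1)) of each member, ordered from Incenp (-0.79) to Smc4 (-0.16). Black points with bars are limma estimates with 95% intervals, open orange diamonds the estimates after median-ratio scaling, and the dashed line the median of all genes tested (-0.15).

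Intervals of 44 members stayed under 0 and those of the other 7 (Cdca3, Ccnb2, Ttk, Spc24, Dlgap5, Ect2 and Smc4) reached it. The members also differed within the control group. Control replicate 1 was higher than control replicate 2 in 42 of 51 members, or 82.4% of them where 64.5% of all genes tested were so, and the median difference was 0.17 log2 for members and 0.08 for all genes. Between the libraries labelled knockout, replicate 1 was higher in 26 of 51 members (51.0%), against 59.0% of all genes tested. The median difference was 0.00 for members and 0.04 for all genes. Without control replicate 1 the members' median log2 fold change was -0.39 and that of all genes tested -0.11, and 50 of 51 members were lower in both remaining pairings, against 56.9% of all genes tested. The count was 51 without control replicate 2 (64.6% of all genes tested), 51 without replicate 1 of the libraries labelled knockout (62.1%) and 50 without replicate 2 of them (54.8%).

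Mitosis genes outside the members, from lists of other pathway parts, were mostly lower too, with smaller medians on log2(FPKM + 1). Because that scale understates low genes, these medians alone do not show that the lists fell less, and the difference was not tested. Of 33 further spindle and cytokinesis genes 32 were lower in all 4 pairings, around a median of -0.37; 48.5% of all genes tested were lower in this way, the share to set beside each such count below. Kpna2, a nuclear import receptor that holds back spindle factors, had 44.8 and 43.0 FPKM in the libraries labelled knockout, against 67.3 and 66.6 FPKM in the controls (-0.60, adjusted p = 0.071). Pbk, a mitotic kinase gene, gave -0.63 and Stmn1, which encodes a microtubule destabiliser, -0.55. Of 30 further kinetochore genes 28 were lower without overlap and 1 higher (Hjurp, the CENP-A chaperone, chosen after its values were seen, at 0.20), with a median of -0.32. Dsn1, Zwint and Spdl1 gave -0.63, -0.46 and -0.62. The low gene Spdl1 stood at 53.1% of its control mean, whereas the member Incenp, at 54.5%, gave -0.79. All 3 further condensin genes were lower (median -0.34). Of 14 core APC/C subunits and partners 13 were lower, around -0.35, with Anapc4 at -0.58, Ube2s at -0.53 and Anapc7 at -0.33. By limma 0 of the genes in these lists passed the threshold; 18, 13, 2 and 8 of them, in the order given, were lower at an unadjusted p under 0.05, as 19.1% of all genes tested were. With limma-voom 0 passed.

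Cohesin is the ring that holds sister chromatids together. Its list, which includes its regulators, had a median nearer to the rest of the transcriptome, but the genes in it differed. The 15 genes of cohesin and its regulators had a median of -0.14, close to the -0.15 of all genes tested, and 9 of 15 were lower without overlap, against 48.5%. After median-ratio scaling 7 of the 15 were negative, against 50.9% of all genes tested. Those of smallest p were Cdca5 (sororin, -0.41), the ring subunit Smc3 (-0.33) and Sgol1, the shugoshin that protects centromeric cohesin (-0.43). Other genes were chosen after their values were seen. The ring subunits Smc1a and Rad21 gave -0.29 and -0.25, both without overlap, and Stag1 and Stag2 gave -0.13 and -0.06. The regulators Wapl, Nipbl and Mau2 were positive, at 0.08, 0.03 and 0.03, each with overlap. By limma 0 passed, and 0 with limma-voom. At an unadjusted p under 0.05, 4 of the 15 were lower, against 19.1% of all genes tested.

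Regulators of these genes were measured as well. Mybl2, which encodes B-MYB, had 2.09 and 2.12 FPKM in the libraries labelled knockout, against 4.52 and 4.09 FPKM in the controls (-0.77, SE 0.13, adjusted p = 0.074). Foxm1, the forkhead activator of G2 and mitosis genes, had 4.67 and 3.48 FPKM in the libraries labelled knockout, against 5.98 and 5.61 FPKM in the controls (-0.43, SE 0.15, adjusted p = 0.169). Neither overlapped between the groups. The E2F genes E2f2 and E2f8 gave -0.72 and -0.54. Of the 17 transcription regulators 12 were lower in all 4 pairings and 0 higher (70.6%, against 48.5% of all genes tested; median -0.31). After median-ratio scaling 8 were lower and 2 higher, and 28% of all genes tested were lower. By limma 0 passed, and 0 with limma-voom. At an unadjusted p under 0.05, 6 of the 17 were lower, against 19.1% of all genes tested.

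Mitotic entry regulators had a median of -0.45. Of 17 genes 12 were lower without overlap, against 48.5% of all genes tested, and 3 were higher, a share near the 14.9% of all genes tested. Pkmyt1, an inhibitory kinase of CDK1, gave -0.64, the spindle-linked gene Gtse1 -0.58 and the cyclin F gene Ccnf -0.46. Wee1, which encodes the other inhibitory kinase of CDK1 and was chosen after its values were seen, had 7.81 and 10.0 FPKM in the libraries labelled knockout, against 5.58 and 6.50 FPKM in the controls (0.49, SE 0.15, adjusted p = 0.144). Cdkn1a, the gene of the CDK inhibitor p21 and likewise chosen afterwards, had 138 and 129 FPKM in the libraries labelled knockout, against 91.6 and 119 FPKM in the controls (0.35, adjusted p = 0.220). Cdc25a, the remaining higher gene, gave 0.10. Cdkn1b and Cdkn1c, further CDK inhibitor genes of the list, went the other way, at -0.23 with overlap and -0.69 without. These genes too were chosen after their values were seen. By limma 0 of the 17 passed in either direction, and 0 with limma-voom. At an unadjusted p under 0.05, 8 were lower and 1 higher, against 19.1% and 7.49% of all genes tested.

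**Figure D4:**
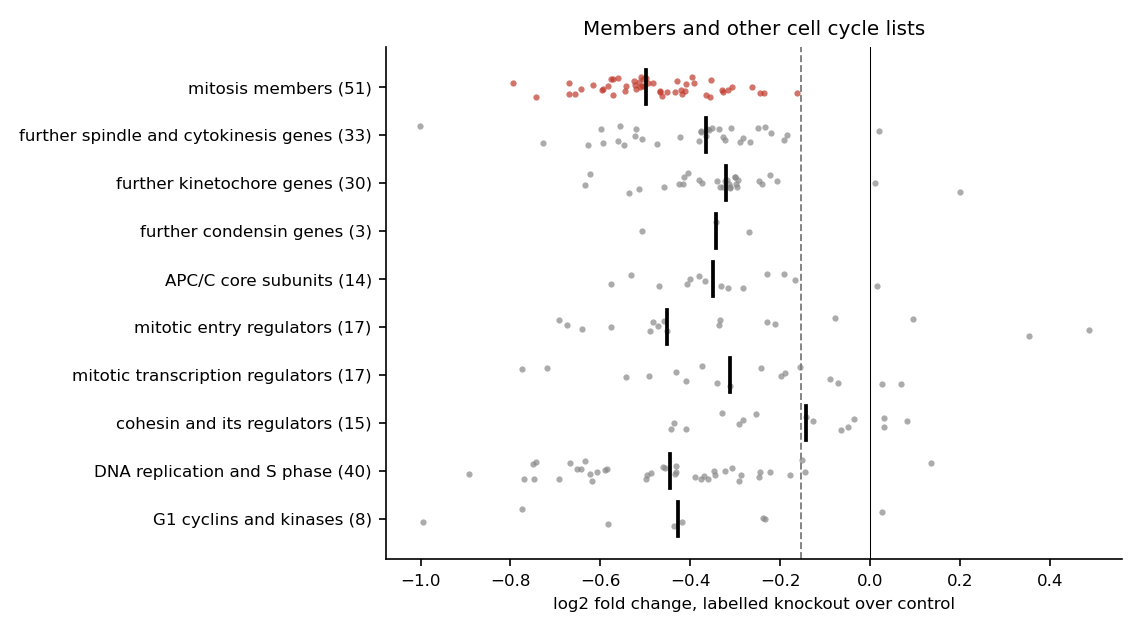
Log2 fold change (labelled knockout over control) of every tested gene in the mitosis members (red) and in 9 other cell cycle lists (grey), with the number of genes in brackets, the median of each list as a black bar and the median of all genes tested (-0.15) as a dashed line. The members' median is -0.50, and that of the cohesin list, -0.14, lies on the dashed line.

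DNA replication genes are the nearest neighbours of the members in the cell cycle. The 40 S phase genes had a median of -0.44, beside the members' -0.50, and 38 of them were lower without overlap, where 48.5% of all genes tested were. They ran from -0.89 to 0.14, a wider range than the members', and 28 were lower at an unadjusted p under 0.05, against 19.1% of all genes tested; limma called 0 and limma-voom 1. Lig1, the replication ligase gene, had 8.28 and 7.72 FPKM in the libraries labelled knockout, against 14.2 and 13.97 FPKM in the controls (-0.75, adjusted p = 0.057). The replicative helicase genes Gins2 and Gins1 gave -0.77 and -0.89. With limma-voom the order of the 2 medians turned, at -0.57 for the members and -0.58 for S phase genes, and the difference between the lists was not tested.

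**Figure D5:**
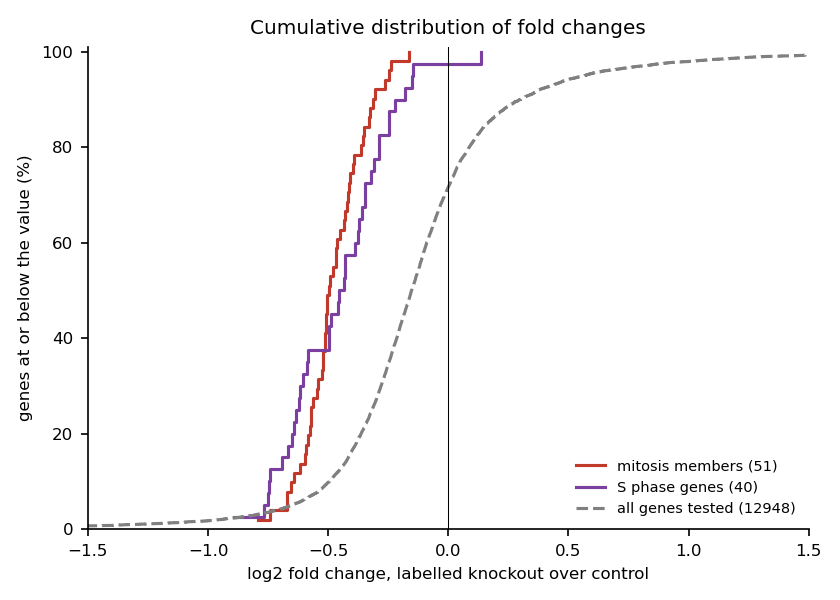
Cumulative share of genes (%) at or below each log2 fold change (labelled knockout over control) for the 51 members (red), the 40 S phase genes (purple) and the 12948 genes tested (grey, dashed). The members lie between -0.79 and -0.16, left of 0, as 71.7% of all genes tested do.

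Fold changes were set beside the promoter letters. Members with both CCAAT and TTTGAA (27) had a median log2 fold change of -0.51, the 16 members whose window held 1 or neither -0.47, and the 8 without a window -0.44. Among the other genes tested, the 530 with both motifs had a median of -0.19, with 53.96% lower in all 4 pairings. The 678 with TTTGAA and no CCAAT had a median of -0.15 and 47.35% lower, and the 3280 with CCAAT and no TTTGAA a median of -0.16 and 51.4% lower. The 4654 with neither had a median of -0.16, with 51.1% lower in all 4 pairings.

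Markers of several cell types differed between the groups beside the members. Enterocyte markers were higher in 12 of 12 genes without overlap, against 14.9% of all genes tested, with a summed level of 15287 and 18683 FPKM in the libraries labelled knockout, against 9019 and 9736 FPKM in the controls, and limma called 3 of them (0.595% of all genes tested were called higher). Any of these markers was called in 8 of 14 alternatives. They were not called with no filter, at a mean of 5 FPKM, without robust moderation, with a replicate block or without either library labelled knockout. Crypt base stem cell markers summed to 167 and 168 FPKM in the libraries labelled knockout, against 268 and 249 FPKM in the controls. Of these markers 7 of 9 were lower without overlap, against 48.5% of all genes tested. Their mean log2(FPKM + 1) was 3.17 and 3.08 in the libraries labelled knockout, against 4.15 and 3.45 in control replicates 1 and 2. On that mean control replicate 2 lay nearer to the libraries labelled knockout than to control replicate 1. Of 7 Paneth cell markers 6 were lower without overlap (48.5% of all genes tested) and 2 called lower (0.131%), with 0 called in those same alternatives, and the list summed to 4476 and 6353 FPKM in the libraries labelled knockout, against 7338 and 9590 FPKM in the controls. All 4 tuft cell markers tested were lower without overlap, with a median of -1.22 and sums of 3.57 and 2.56 FPKM in the libraries labelled knockout, against 21.6 and 9.23 FPKM in the controls. Of 7 goblet cell markers 5 were lower without overlap (median -0.50), against 48.5% of all genes tested. They summed to 6521 and 5698 FPKM in the libraries labelled knockout, against 6624 and 8251 FPKM in the controls. After median-ratio scaling 3 of the 7 were lower without overlap, against 28% of all genes tested. Of 7 enteroendocrine markers 0 were lower and 2 higher (median 0.21), where 14.9% of all genes tested were higher. General epithelial markers summed to 7350 and 7035 FPKM in the libraries labelled knockout, against 7906 and 8834 FPKM in the controls. In these bulk samples, fewer dividing cells and less mitotic RNA per cell cannot be told apart, and the part of cell makeup in the members' values was not tested.

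Immune cells can divide as well and could carry mitotic RNA. The 15 immune markers summed to 320 and 263 FPKM in the libraries labelled knockout, against 303 and 371 FPKM in the controls, and 3 of 15 were lower without overlap, against 48.5% of all genes tested. The B cell gene Ms4a1 had 3.38 and 0.365 FPKM in the libraries labelled knockout, against 3.05 and 0.658 FPKM in the controls, so it differed within each group and not between them. Of 13 stromal markers 1 was lower without overlap, under the same share of 48.5%, and the list summed to 368 and 334 FPKM in the libraries labelled knockout, against 375 and 478 FPKM in the controls. No immune or stromal marker was at 0, and their part in the members' values was not tested.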

How the data were processed

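Per the file headers, the authors' deposited table gives each gene's value in each library, group means, the log2 of their ratio, and p-values with q-values. The headers name no unit. The deposited expression values were read as FPKM because all 13359 genes gave whole reads within 0.002 with 1 length per gene and 1 total per library. Of 13527 entries 168 were exact repeats and used once. The submitters' processing notes name HISAT2, BWA, SICER, mm10 and hg38 without roles; the counter, annotation, strand use and the authors' test are not stated in those notes or in the headers. The table's own mm10 coordinates are printed. Unused per-sample columns numbered 0, and 4 ChIP-seq libraries of HCT116 cells were not analysed here.

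Limma 3.58.1 in R 4.3.3 was fitted to log2(FPKM + 1), with trend and robust moderation, to the 12948 genes that reached 1 FPKM in 2 or more libraries, with genotype as the only term (2 residual degrees of freedom). Adjustment was by Benjamini-Hochberg over all of them. The script was tested on simulated data. Alternatives were other pseudocounts, filters, scalings and moderation, limma-voom on recovered reads, a replicate block and leaving out each library. Members, lists, roles and motifs were chosen with earlier results of these data known. Members named with library values are, per role, the 2 of smallest p and that of smallest fold change, plus Mki67, Top2a, Ccnb1, Cdk1, Aurkb and Birc5. Other lists name up to 3 genes of smallest p, plus Foxm1 and Mybl2. Epcam, Vil1, Ms4a1 and the genes marked as chosen after their values were seen fall outside this rule.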

Additional observations from a re-analysis of the deposited data

How the results depend on the processing

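The members' median log2 fold change was -0.50 and stayed negative in all 14 alternatives. It was -0.56 with a pseudocount of 0.1 (S phase genes -0.56), -0.34 after median-ratio scaling (S phase -0.31), -0.34 after quantile normalization (S phase -0.29) and -0.57 with limma-voom (S phase -0.58); with a pseudocount of 0.5 the S phase median was -0.50. Scaling moves the median of all genes by its own construction. Leaving out 1 library gave member medians from -0.58 to -0.39 and S phase medians from -0.52 to -0.38, with 50 to 51 members lower in all remaining pairings. Called members numbered 0 to 6 in these fits, the 6 without control replicate 2, where 1 control is assumed to vary like the libraries labelled knockout; the cause was not tested. No member was called in the other alternatives. Calls over all genes numbered 94, but 1 with no filter or without robust moderation, 2 at a mean of 5 FPKM and 0 with the block or without either library labelled knockout (Ccnd1 with the block: adjusted p = 0.152); calls of markers and Ccnd1 were followed through these fits after the data were seen. Smc4 changed sign, to 0.0041, after median-ratio scaling. At a mean of 5 FPKM 36 members were tested and 35 were lower. With the replicate number as a block the median was -0.50 and 0 members were called (41 at an unadjusted p under 0.05). Labels do not say what a number marks. Same-numbered libraries' deviations correlated at 0.0452 over genes, which cannot show whether same-numbered pools were prepared together. The block was therefore kept as an alternative only. With 2 libraries per group precision is set by their number; the lowest member held 215 reads.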

Other observations

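Genes of the G1 phase, which lie outside mitosis, also had lower values. Of 8 G1 cyclins and kinases 7 were lower without overlap (48.5% of all genes tested were), with a median log2 fold change of -0.43. Ccnd1, the gene of cyclin D1, had 17.2 and 15.2 FPKM in the libraries labelled knockout, against 32.3 and 34.2 FPKM in the controls (-0.99, limma adjusted p = 0.044). It was called lower in 4 of 14 alternatives, and over all 14 its limma adjusted p ran from 0.0354 to 0.348. Cdk2 gave -0.77 and Cdk4 -0.43. Ccnd2 stood apart, with 42.6 and 33.7 FPKM in the libraries labelled knockout, against 36.4 and 38.1 FPKM in the controls, and it was chosen after its values were seen.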
